A study of Mus musculus with 62 samples.

Results

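The cortex of mice killed 4 h after their first and only injection of ethanol was compared with that of mice injected with saline. These are 6 of the 62 samples of the series, selected by their labelled tissue, paradigm and treatment: 3 of acute ethanol (replicates 2, 4 and 5) and 3 of acute saline (replicates 2, 4 and 6). All were male C57BL/6J mice of 8 to 10 weeks. The ethanol mice received 2 g/kg, as a 20% solution, by intraperitoneal injection, and the saline mice the same volume of vehicle, so both groups carry 1 injection and its handling, and no uninjected mice were compared. The whole series covers 5 brain regions of 16 mice after acute (1 injection) or chronic (10 daily injections) treatment. Each cortex sample is 1 mouse, so that p-values measure the spread between mice. The tissue was cut with a corer from slices of frozen brain, the cortical area is not given in the sources used here, and a core can differ in how much of each layer, of the underlying white matter and of the covering membranes it takes.

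Ethanol enhances GABA-A receptors and inhibits NMDA receptors, and a first dose also activates the adrenal stress axis, whose hormone corticosterone acts on genes through the glucocorticoid receptor. Synaptic activity switches on the immediate early genes within minutes, through CREB and SRF bound near their start sites, and the products of these genes (the EGR, FOS, JUN and NR4A transcription factors, ARC and others) turn over quickly, so their level follows recent firing. The surface of the cortex is covered by the meninges, whose fibroblasts make collagens and transporters, and blood vessels carry endothelial cells, mural cells and macrophages into the tissue.

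Poly(A) RNA was sequenced, and the deposited values are counts of read pairs on genes and isoforms. The 6 libraries held 49203784 to 61873358 counts on genes, 5.06 to 5.79% of them on mitochondrial genes. Correlations of log2 counts between libraries were 0.988 to 0.989, and by this measure no library stood apart. They were taken over all genes, including the 18866 with 0 counts in all 6 libraries. Markers of pallial excitatory neurons (*Slc17a7*, *Neurod2*, *Tbr1* and others) summed to 7219.9, 7640.2 and 7234 CPM in the saline libraries and 6862, 6879 and 6745 CPM in the ethanol libraries, against 239 to 326 CPM for striatal and 46.8 to 67.2 CPM for thalamic markers, so the tissue carried the defining genes of its label. Levels here and below are TMM-normalized CPM (read counts scaled to the size of the library), listed in the order of replicates 2, 4 and 6 for saline and 2, 4 and 5 for ethanol.

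Here and below, rose, fell and called refer to the edgeR test unless DESeq2 is named. EdgeR called 515 of 25905 genes at an FDR below 0.1, which is 1.99% (0.818% up, 212 genes, and 1.17% down, 303 genes), and 3228 genes had an unadjusted p below 0.05. Most differences were small: 303 of the called genes differed by less than 0.5 on the log2 scale and 43 by 1 or more, 18 of them up and 25 down. The groups did not overlap for 503 of the called genes, as they did not for 17.6% of all genes tested (8.79% lower and 8.85% higher). Of the called genes 466 are protein-coding and 138 (50 up, 88 down) belong to the 57 lists of cell type markers and pathways described here, which hold 1215 of the genes tested. The calls leaned on which mice were compared: edgeR called 42 genes without ethanol replicate 4, 111 without saline replicate 4, 142 without ethanol replicate 5, 307 without saline replicate 2 and 794 without ethanol replicate 2. It called 0 genes, including 0 in each list, when the spread was estimated from all 4 cortex groups with the chronic mice, and DESeq2 called 957 genes (1.48% up and 2.21% down), 481 of the 515 among them.

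The rises and falls ranked here are those of called genes with a mean of at least 1 CPM and a formal symbol. Genes whose groups overlapped, or that share exon sequence with the other strand (such as *Fkbp5* and *Plin4*), were left out. Among the rest, the largest rises were those of receptors and other genes of low level. *Mc4r* (ENSMUSG00000047259; chromosome 18, 66990775 to 66993577), the melanocortin receptor that restrains feeding, was at 0.527, 0.714 and 0.577 CPM in the saline libraries and 1.55, 2.72 and 2.62 CPM in the ethanol libraries (log2 fold change 1.92 with a standard error of 0.26, edgeR FDR 0.0103). *Hcrtr1*, an orexin receptor, was at 1.88, 1.37 and 1.98 CPM with saline and 2.92, 3.42 and 2.99 CPM with ethanol, and *Oprk1*, the kappa opioid receptor, at 2.22, 1.71 and 1.98 CPM with saline and 3.64, 3.44 and 3.72 CPM with ethanol. For all of these the groups are separate by that choice. Others of the 12 largest rises were *Sdk2*, a synaptic adhesion molecule (log2 fold change 0.93), *Slc25a13*, the mitochondrial aspartate and glutamate carrier (1.19), *Pappa2*, a protease that frees insulin-like growth factors (1.17), *Prss35* (1.29), *Nlrp6* (1.23), *Sebox* (0.98), *Sla* (0.83), *Smim3* (0.82) and *Emilin2* (0.80), with edgeR FDRs of 0.00862 to 0.0890.

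By the same ranking, which leaves out genes such as *Six2* (-1.80) and *Fzd10* (-1.22), the 12 largest falls fell into fewer kinds. Of these, 5 were activity-regulated genes (*Egr2*, *Nr4a2*, *Sik1*, *Fosl2* and *Nr4a1*), and *Foxc2* and *Msx1* are transcription factors of the meninges and skull lineage. *Slc38a5*, a glutamine transporter, was at 2.71, 2.30 and 1.95 CPM in the saline libraries and 1.03, 0.813 and 1.12 CPM in the ethanol libraries (log2 fold change -1.22 with a standard error of 0.21, edgeR FDR 0.0210). *Cdh1*, the epithelial cadherin, was at 3.46, 2.68 and 2.60 CPM with saline and 1.69, 0.691 and 1.41 CPM with ethanol (log2 fold change -1.20). The remaining ones were *Or4d1* (-1.17), *Car13*, a carbonic anhydrase (-1.08), and *Aox3*, an aldehyde oxidase (-1.07). The groups are again separate by the choice of genes.

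Genes of the meninges were lower with ethanol. All 24 genes of the list of meningeal and vascular fibroblast markers had a lower mean, against 49.4% of all genes tested, and 14 of them fell (58.3% of the list, against 1.17% of all genes), none rising. Their median log2 fold change was -0.56, against 0.00 for all genes. The summed level of the list was 243, 241 and 218 CPM in the saline libraries and 156, 166 and 158 CPM in the ethanol libraries, so that the lowest saline library stood clear above the highest ethanol library. Among the 76 lists and families of this report, 17 sums were lower in every ethanol library than in any saline library. Another 6 sums were higher in the same way. In a bulk sample, fewer cells of a type and less RNA per cell cannot be told apart.

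Among its members, *Fmod* (ENSMUSG00000041559; chromosome 1, 133964992 to 133976015), which encodes the collagen-binding proteoglycan fibromodulin, was at 15.6, 18.5 and 14.0 CPM in the saline libraries and 9.61, 8.54 and 9.18 CPM in the ethanol libraries (log2 fold change -0.82 with a standard error of 0.11, edgeR FDR 0.0103). *Igf2* (ENSMUSG00000048583; chromosome 7, 142204503 to 142220553), insulin-like growth factor 2 of the leptomeninges, was at 43.5, 44.5 and 39.8 CPM with saline and 27.3, 29.3 and 24.8 CPM with ethanol (log2 fold change -0.65 with a standard error of 0.08, edgeR FDR 0.00862). Both were lower in every ethanol mouse and were called with each library left out in turn. The anion transporters *Slc13a4* (-0.84) and *Slc22a6* (-0.82), the fibrillar collagens *Col1a1* (-0.60), *Col1a2* (-0.47) and *Col3a1* (-0.74), the proteoglycan *Ogn* (-0.88), the matrix inhibitor of calcification *Mgp* (-0.56), *Igfbp2* (-0.48) and the transcription factors *Foxc1* (-0.56), *Foxc2* (-0.97), *Foxd1* (-0.84) and *Six2* (-1.80) fell as well. The 14 falls numbered 5 without ethanol replicate 4, 6 without ethanol replicate 5 or saline replicate 4, 9 without saline replicate 2 and 15 with DESeq2, and *Igf2* and *Ogn* overlap genes on the other strand.

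Genes of the other cells of the membranes and vessels lay on the same side, with few calls. Border macrophage markers had a median of -0.64, 7 of 7 lower and only *Mrc1*, the mannose receptor, called (-0.72), and their summed level was 12.2, 10.3 and 9.55 CPM in the saline libraries and 6.84, 8.28 and 5.47 CPM in the ethanol libraries. Mural cell markers had a median of -0.25, 11 of 11 lower and *Acta2*, smooth muscle actin, called (-0.75), at a summed 201, 202 and 195 CPM in the saline libraries and 176, 169 and 161 CPM in the ethanol libraries. Both sums were lower in each ethanol library than in each saline library, and are among the 17 of 76 sums for which this held. For endothelial markers the sums overlapped, at 368, 402 and 412 CPM in the saline libraries and 362, 390.4 and 374 CPM in the ethanol libraries. Of their 14 genes *Tek*, the angiopoietin receptor, fell (12.4, 12.7 and 12.1 CPM with saline and 7.92, 6.40 and 8.06 CPM with ethanol, log2 fold change -0.73 with a standard error of 0.10, edgeR FDR 0.0103), as did the anion transporter *Slco1a4* (-0.31), and *Mfsd2a*, which carries omega-3 fatty acids over the barrier, rose (0.43). *Tie1*, the partner receptor of *Tek*, which is not in that list, fell by 0.58 on the log2 scale.

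Choroid plexus genes showed a different pattern, set by 1 library. Their sum was 12.2, 32.9 and 134 CPM in the saline libraries and 8.43, 19.0 and 24.9 CPM in the ethanol libraries, and *Ttr*, the transthyretin gene that defines this epithelium, was at 4.63, 24.7 and 113.4 CPM with saline and 2.86, 11.8 and 17.2 CPM with ethanol. Saline replicate 6 stood far above the others and the remaining 2 saline libraries overlapped the ethanol libraries. The ratio of the group means was -1.78 on the log2 scale and -0.37 without that library. 0 of the 14 choroid plexus genes were called by edgeR, with 8 at an unadjusted p below 0.05 and 1 called by DESeq2, although 13 had a lower mean (median log2 fold change -0.95). Ependymal markers were not lower (7 of 7 higher, 0 called by edgeR or DESeq2, 2 at an unadjusted p below 0.05, median 0.29), nor did hemoglobin and other blood genes separate the groups, at a summed 1147, 1101 and 677 CPM in the saline libraries and 792, 929 and 768 CPM in the ethanol libraries.

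**Figure D1:**
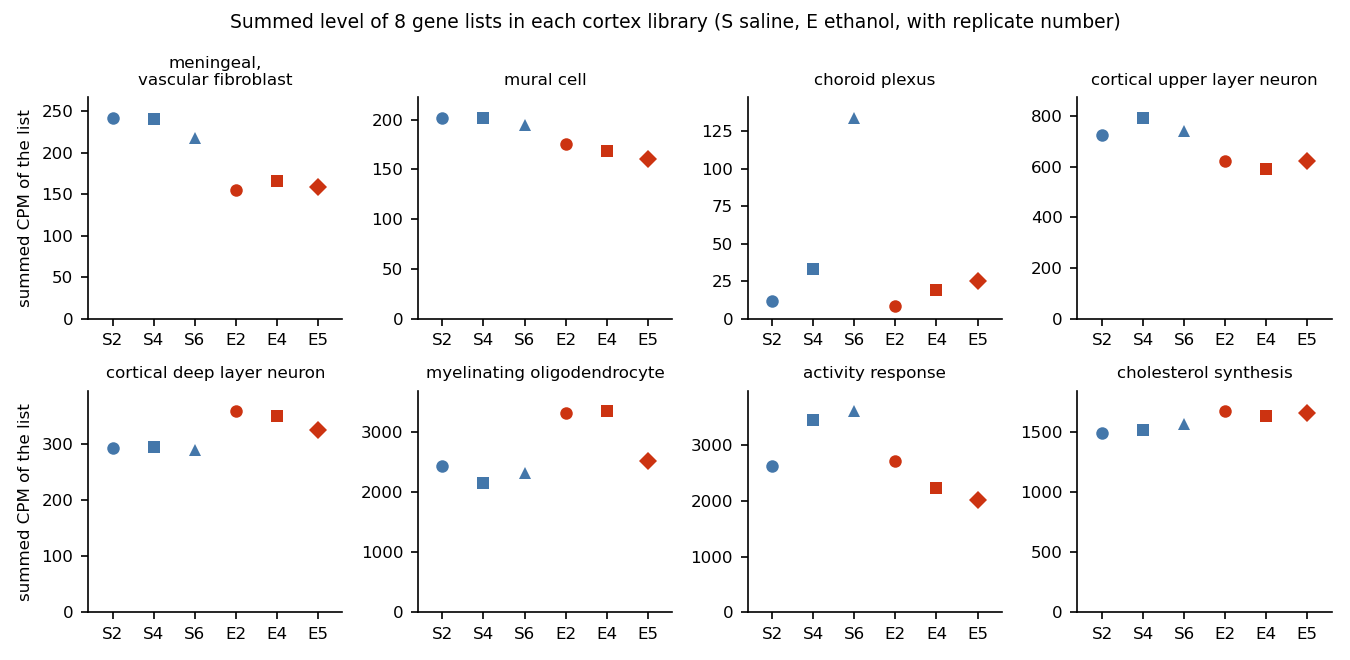
Summed TMM-normalized CPM of 8 gene lists in each of the 6 cortex libraries, with 1 point for each mouse on linear axes from 0. The meningeal, mural and upper-layer sums are lower and the deep-layer, myelin and cholesterol sums higher in every ethanol library than in any saline library, the activity sums overlap, and the choroid plexus sum is high in saline replicate 6 alone, at 134 CPM.

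The layers of the cortex also differed between the groups. All 5 upper-layer markers fell, where 1.17% of all genes did: *Cux2* (156, 179.6 and 171 CPM with saline and 139, 123 and 129 CPM with ethanol, log2 fold change -0.37 with a standard error of 0.06, edgeR FDR 0.0218), *Cux1* (-0.32), *Lhx2* (-0.37), *Calb1* (-0.33) and *Rasgrf2* (-0.22). The layer 4 regulator *Rorb* fell too (49.2, 41.9 and 50.9 CPM with saline and 39.9, 28.8 and 29.7 CPM with ethanol, log2 fold change -0.53 with a standard error of 0.11, edgeR FDR 0.0493). For both genes the groups did not overlap, as for 503 of the 515 called genes, and ethanol replicate 2 was the nearest to saline.

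Deep-layer markers lay on the opposite side. Of 12 genes 11 were higher with a median of 0.29, and *Foxp2* (0.73), *Syt6* (0.67) and the sulfotransferase gene *Hs3st4* (0.44), marks of layer 6 neurons, rose (25.0% of the list, against 0.818% of all genes). The summed level was 292, 293 and 289 CPM in the saline libraries and 358, 349 and 325 CPM in the ethanol libraries, with no overlap, and the upper-layer sum was 723, 793 and 739 CPM in the saline libraries and 623, 589.5 and 619.9 CPM in the ethanol libraries, also with none. Genes shared by all pallial excitatory neurons had a median of -0.08, while *Nrgn*, the postsynaptic calmodulin-binding neurogranin, fell (-0.21) and *Neurod6* rose (0.31). Of these 9 genes 5 had an unadjusted p below 0.05 with edgeR, and DESeq2 called 1 up and 2 down. Their sum was 7220 to 7640 CPM in the saline libraries and 6745 to 6879 CPM in the ethanol libraries, also without overlap. The 5 upper-layer falls numbered 0 without ethanol replicate 4, 1 without saline replicate 4, 2 without ethanol replicate 5 and 3 without saline replicate 2, and the 3 deep-layer rises 0, 1, 5 and 3 in the same order.

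Genes of myelin were higher. All 16 markers of myelinating oligodendrocytes had a higher mean, against 50.6% of all genes (median 0.33), and 7 rose (43.8%, against 0.818% of all genes), among them *Mal*, *Mobp*, *Mog*, *Trf*, *Cnp* and *Mbp*. *Mal* (ENSMUSG00000027375; chromosome 2, 127475146 to 127498615), a proteolipid of compact myelin, was at 84.7, 80.9 and 89.2 CPM in the saline libraries and 135, 162 and 110.1 CPM in the ethanol libraries (log2 fold change 0.67 with a standard error of 0.10, edgeR FDR 0.0151). *Mobp* was at 308, 268 and 311 CPM with saline and 493, 549 and 371 CPM with ethanol (log2 fold change 0.67 with a standard error of 0.11, edgeR FDR 0.0173) and *Mbp*, which compacts the myelin membrane, at 982, 873 and 948 CPM with saline and 1292, 1255 and 977 CPM with ethanol (log2 fold change 0.33). Ethanol replicates 2 and 4 were clearly raised, whereas ethanol replicate 5 was near the saline libraries, with a summed list level of 2505 CPM against 3313 and 3339 CPM in the other ethanol mice and 2138 to 2420 CPM with saline.

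Precursor genes of the same lineage did not follow to the same extent: 0 of 9 were called by edgeR or DESeq2, 3 had an unadjusted p below 0.05 and the median was 0.12. The 7 myelin rises numbered 2 without ethanol replicate 4, 3 without saline replicate 4 or 6, and 4 without replicate 2 of either group. *Cnp*, *Mobp* and *Mog* overlap exons of an antisense gene, and this kit does not tell strands apart. Meningeal, layer and myelin genes therefore moved with the treatment groups in the same 6 cores, and whether the position of the core contributed to any difference described here cannot be told apart from the treatment.

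Genes that follow neuronal activity were lower 4 h after ethanol. Of 45 activity-response genes 42 had a lower mean (against 49.4% of all genes), 15 fell (33.3%, against 1.17%) and 0 rose, and the median log2 fold change was -0.45. In 17 of the 45 every ethanol library was below every saline library, against 8.79% of all genes tested. The falls comprised 10 of the 24 transcription factors (*Egr2*, *Egr3*, *Egr4*, *Fos*, *Fosl2*, *Junb*, *Nr4a1*, *Nr4a2*, *Csrnp1* and *Klf10*) and 5 of the 21 effectors (*Arc*, *Sik1*, *Dusp1*, *Gadd45b* and *Nptx2*).

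*Egr3* (ENSMUSG00000033730; chromosome 14, 70314652 to 70316752), a zinc finger transcription factor, had the smallest FDR of the list. It was at 216, 205 and 229 CPM in the saline libraries and 167, 134 and 122 CPM in the ethanol libraries (log2 fold change -0.62 with a standard error of 0.09, edgeR FDR 0.0111), with saline mice close together and all ethanol mice lower. *Nr4a2*, an orphan nuclear receptor, was at 18.1, 15.6 and 25.6 CPM with saline and 12.1, 8.50 and 6.13 CPM with ethanol (log2 fold change -1.16 with a standard error of 0.21, edgeR FDR 0.0284). *Sik1*, a CREB-induced kinase that in turn restrains CREB's coactivators, was at 15.1, 23.7 and 29.5 CPM with saline and 12.3, 11.9 and 8.22 CPM with ethanol (log2 fold change -1.08 with a standard error of 0.20, edgeR FDR 0.0309). In both, ethanol replicate 5 was lowest and the groups did not overlap.

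The start-site regions of *Sik1* and *Egr2* are shown because the genes fell together and hold letters to which CREB and SRF are known to bind. They are the 300 bases before the canonical start in GENCODE M39 (GRCm39), 5′ to 3′ on the strand of the gene. For *Sik1* (chr17:32074819-32075118, minus strand) capitals mark TGACG and its reverse complement CGTCA, the short form of the cAMP response element that CREB binds, the full form of which is TGACGTCA. For *Egr2* (chr10:67373392-67373691, plus strand) capitals mark the serum response element, and any copy of TGACG is left in lower case.
Sik1: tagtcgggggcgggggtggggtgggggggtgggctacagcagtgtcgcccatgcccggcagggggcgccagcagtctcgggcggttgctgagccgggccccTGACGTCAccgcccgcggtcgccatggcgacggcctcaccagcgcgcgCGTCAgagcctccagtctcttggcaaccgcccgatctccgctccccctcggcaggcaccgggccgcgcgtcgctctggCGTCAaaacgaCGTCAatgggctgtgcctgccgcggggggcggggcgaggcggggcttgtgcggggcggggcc
Egr2: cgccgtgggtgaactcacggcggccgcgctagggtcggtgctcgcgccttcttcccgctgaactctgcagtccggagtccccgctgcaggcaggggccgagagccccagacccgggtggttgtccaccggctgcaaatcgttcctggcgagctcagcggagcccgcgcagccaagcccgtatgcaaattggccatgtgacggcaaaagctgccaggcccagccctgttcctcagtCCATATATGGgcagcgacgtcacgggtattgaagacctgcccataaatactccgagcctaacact
TGACG was found, on either strand, in 29 of the 45 promoters of the list (64.4%) and 10 of the 15 of the called genes (66.7%), against 20.7% of the 25892 promoters of all genes tested. It was also in 14 of 28 promoters of the cholesterol genes described below (50.0%), whose calls were rises. The glucocorticoid-response list had it in 4 of 22 (18.2%) and the metallothionein and zinc list in 5 of 21 (23.8%). The whole TGACGTCA, which contains the shorter motif on both strands, was in 8 of the 45 (17.8%, against 1.61%) and the serum response element in 5 of the 45 (11.1%, against 1.67%). *Arc*, *Nr4a2*, *Fosl2* and *Csrnp1* held no TGACG in this window. A match describes the letters only and is no measurement of binding.

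Several of these genes varied widely among the saline mice. *Fos* was at 28.0, 65.5 and 50.7 CPM in the saline libraries and 28.9, 27.8 and 22.7 CPM in the ethanol libraries (log2 fold change -0.86 with a standard error of 0.21, edgeR FDR 0.0858). *Arc*, whose protein remodels synapses, was at 316, 467 and 531 CPM with saline and 335, 259 and 177 CPM with ethanol (log2 fold change -0.77 with a standard error of 0.20, edgeR FDR 0.0924), and *Junb* had a log2 fold change of -0.86 (FDR 0.0890). Saline replicate 4 was high for *Fos* and *Junb*, saline replicate 6 for *Arc*, and saline replicate 2 was as low as the ethanol mice, so that *Fos*, *Arc* and *Egr4* overlapped between the groups. The summed level of the list overlapped likewise, at 2623, 3441 and 3601 CPM in the saline libraries and 2701, 2223 and 2016 CPM in the ethanol libraries.

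*Nr4a1* showed the same order, at 98.1, 235 and 186 CPM with saline and 97.1, 95.4 and 74.8 CPM with ethanol (log2 fold change -0.96), as did *Dusp1*, a phosphatase that ends MAP kinase signalling, at 43.1, 83.4 and 58.7 CPM with saline and 35.6, 35.7 and 36.5 CPM with ethanol (-0.78). *Fosl2* (-1.02), *Egr2* (-1.18), *Egr4* (-0.75), *Csrnp1* (-0.60), *Klf10* (-0.45), *Gadd45b* (-0.39) and the pentraxin *Nptx2* (-0.39) complete the falls. The 15 falls numbered 1 without ethanol replicate 4 or 5, 2 without saline replicate 4 and 7 without saline replicate 6, but 20 without saline replicate 2. DESeq2 did not call *Arc*, *Egr4*, *Fos*, *Fosl2*, *Junb* or *Nr4a1*, and *Csrnp1*, *Dusp1*, *Junb* and *Klf10* share exon sequence with a gene on the other strand.

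**Figure D2:**
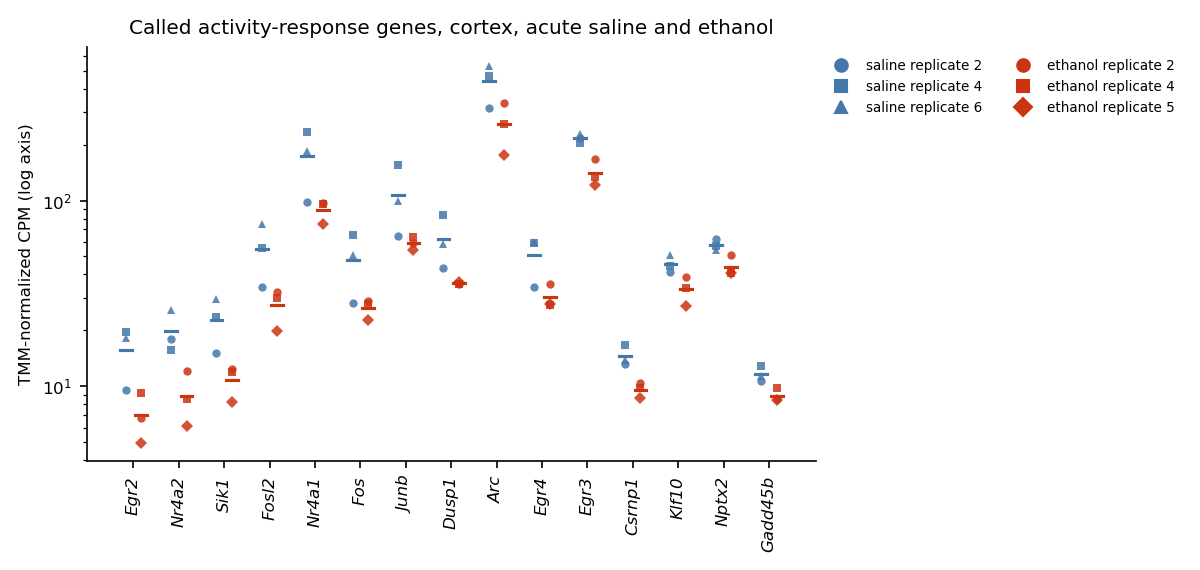
TMM-normalized CPM (log axis) of the 15 called activity-response genes in each cortex library, with the symbol giving the replicate and the bar the group mean. The ethanol means are lower for all 15, while saline replicate 2 lies with the ethanol libraries for *Fos* and *Arc*.

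Some genes that glucocorticoids are known to induce rose. Of 22 glucocorticoid-response genes 13 were higher and 9 lower, 4 rose (18.2%, against 0.818% of all genes) and 1, *Dusp1*, fell, with a median of 0.10 over the list. DESeq2 called 4 up and 1 down. Corticosterone itself was not measured. *Tsc22d3*, which encodes the anti-inflammatory protein GILZ, was at 67.7, 60.8 and 88.1 CPM in the saline libraries and 87.7, 119.6 and 109 CPM in the ethanol libraries (log2 fold change 0.55 with a standard error of 0.12, edgeR FDR 0.0632). *Plin4*, a lipid-droplet coat protein, was at 6.06, 9.55 and 14.9 CPM with saline and 18.1, 18.1 and 28.0 CPM with ethanol (log2 fold change 1.08 with a standard error of 0.25, edgeR FDR 0.0620). For *Tsc22d3* saline replicate 6 reached the lowest ethanol library, whereas for *Plin4* all ethanol mice were higher.

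*Fkbp5*, the cochaperone that restrains the glucocorticoid receptor, was at 31.4, 36.4 and 39.7 CPM with saline and 51.8, 77.4 and 75.3 CPM with ethanol, with ethanol replicate 2 the lowest of the ethanol mice, and was called with each library left out. *Cdkn1a*, a cell cycle inhibitor that p53 also induces, rose by 0.46 on the log2 scale, as the only one of 15 p53 targets that edgeR called, where DESeq2 called 3 up. Other classical targets were not called by edgeR, although DESeq2 called *Sgk1* and *Sult1a1* up: *Sgk1* was at 51.5, 40.9 and 57.1 CPM with saline and 55.7, 73.1 and 72.1 CPM with ethanol (FDR 0.121), *Per1* at 67.8, 131 and 174 CPM with saline and 97.8, 95.7 and 92.7 CPM with ethanol (FDR 0.517), and the receptor gene *Nr3c1* had a log2 fold change of -0.15 (FDR 0.511). DESeq2 did not call *Tsc22d3* or *Plin4*, and *Fkbp5*, *Plin4* and *Cdkn1a* overlap genes on the other strand. Without ethanol replicate 4 or 5 or saline replicate 4 the rises numbered 1, without saline replicate 2 they numbered 2 and without ethanol replicate 2 they numbered 9.

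Metallothioneins, which bind zinc and are induced by metals and glucocorticoids, rose in part. *Mt1* was at 107, 109.8 and 109.8 CPM in the saline libraries and 119, 132 and 126 CPM in the ethanol libraries (log2 fold change 0.21 with a standard error of 0.05, edgeR FDR 0.0989) and *Mt2* at 52.9, 55.7 and 56.9 CPM with saline and 64.6, 87.2 and 83.8 CPM with ethanol. The brain form *Mt3* was at 179, 178 and 176 CPM with saline and 174, 181 and 176 CPM with ethanol (log2 fold change -0.01, FDR 0.966). Ethanol replicate 2 was the lowest ethanol mouse for *Mt1* and *Mt2*, as it was for *Fkbp5* and *Tsc22d3*. None of the zinc exporters (8 genes), importers (9 genes) or the zinc-sensing factor *Mtf1* was called by edgeR or DESeq2, with medians of -0.03 for exporters and -0.05 for importers. Over the 21 genes of the list 4 had an unadjusted p below 0.05. With 1 library left out the rises numbered 0 to 2, and 0 of the 3 tested isoforms of *Mt1* were called. *Mt2* overlaps *Gm45774* on the other strand, with log2 fold changes of 0.51 and 0.52.

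The region before *Mt2* (300 bases, chr8:94898832-94899131, plus strand, GRCm39) is shown because it holds the letters that the zinc-activated factor MTF1 binds. Capitals mark TGCACNC or TGCGCNC on either strand, the core of the metal response element.
Mt2: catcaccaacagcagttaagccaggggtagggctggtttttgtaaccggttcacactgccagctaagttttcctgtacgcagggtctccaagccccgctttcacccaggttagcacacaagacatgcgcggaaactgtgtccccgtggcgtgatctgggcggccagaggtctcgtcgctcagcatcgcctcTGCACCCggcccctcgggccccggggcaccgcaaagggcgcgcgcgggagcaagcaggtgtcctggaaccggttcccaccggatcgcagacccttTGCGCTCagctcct
The motif was present 2 times here and 1 time before *Mt1*, and is common, in 26.0% of all promoters.

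Genes of cholesterol synthesis were slightly higher as a group. All 20 enzymes had a higher mean, against 50.6% of all genes, with a median of 0.16, and *Hmgcs1*, *Idi1*, *Fdft1* and *Msmo1* rose, as did *Stard4*, a sterol carrier, among the 8 regulators. *Hmgcs1* (ENSMUSG00000093930; chromosome 13, 120151915 to 120169618), an early synthase of the pathway, was at 229, 211 and 223 CPM in the saline libraries and 262, 261 and 253 CPM in the ethanol libraries (log2 fold change 0.23 with a standard error of 0.05, edgeR FDR 0.0496). *Msmo1*, a sterol demethylase, was at 46.9, 45.7 and 54.5 CPM with saline and 59.9, 65.4 and 65.7 CPM with ethanol (log2 fold change 0.38 with a standard error of 0.07, edgeR FDR 0.0340). *Idi1* was at 37.6, 34.1 and 41.2 CPM with saline and 47.0, 48.1 and 47.7 CPM with ethanol (log2 fold change 0.34 with a standard error of 0.07, edgeR FDR 0.0493). The ethanol mice lay close together and above all saline mice in each.

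The gene of the controlling transcription factor, *Srebf2*, had a log2 fold change of -0.04 (FDR 0.846). The summed list level was 1494, 1519 and 1572 CPM in the saline libraries and 1678, 1633 and 1665 CPM in the ethanol libraries, without overlap. It is among the 6 of 76 sums of lists and families that were higher in this way. Oligodendrocytes, whose genes were higher in the same libraries, also make cholesterol, and their part in this difference was not tested. The 5 rises became 0 without ethanol replicate 4 or 5 or saline replicate 4, 1 without saline replicate 2 and 2 without saline replicate 6. *Fdft1*, *Hmgcs1* and *Idi1* overlap genes on the other strand.

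**Figure D3:**
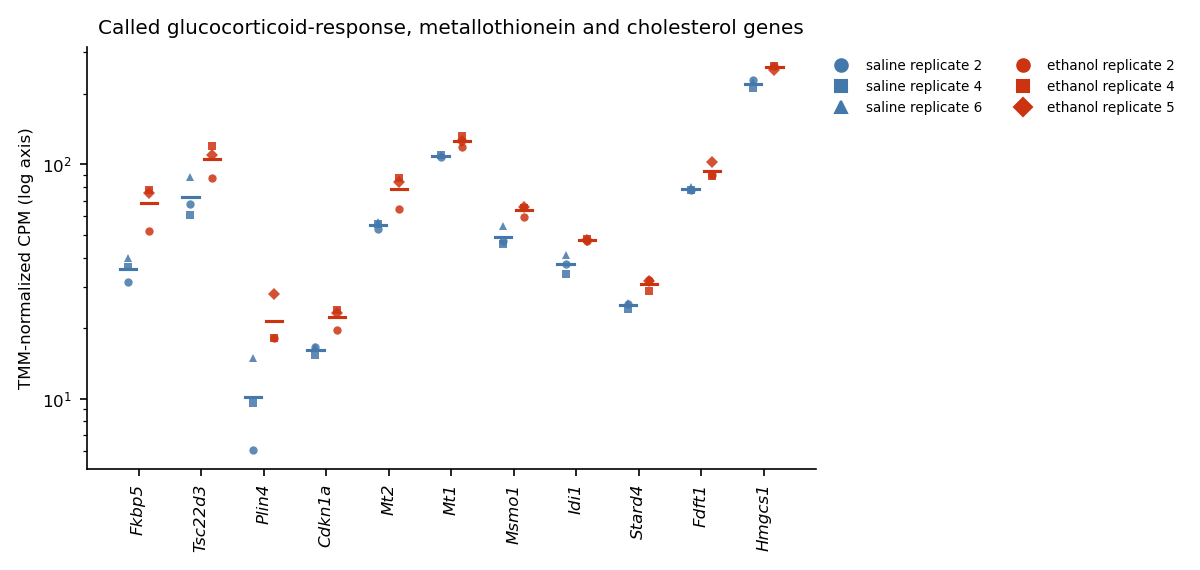
TMM-normalized CPM (log axis) of the called glucocorticoid-response genes that rose, both called metallothioneins and the called cholesterol genes in each library, with group means as bars. All 11 group means are higher with ethanol, and saline replicate 6 reaches the ethanol range only for *Tsc22d3*.

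At the synapse, genes of the postsynaptic density were lower. Of 17 scaffold genes 5 fell (29.4%, against 1.17% of all genes) and 0 rose, with 14 lower (against 49.4%) and a median of -0.12. *Dlgap3* (ENSMUSG00000042388; chromosome 4, 127062997 to 127130815), which links PSD-95 to SHANK proteins, was at 434, 459.7 and 447 CPM in the saline libraries and 379, 330.2 and 317 CPM in the ethanol libraries (log2 fold change -0.38 with a standard error of 0.06, edgeR FDR 0.0173). *Shank1* was at 568, 589 and 589 CPM with saline and 481, 473 and 384 CPM with ethanol (log2 fold change -0.38 with a standard error of 0.07, edgeR FDR 0.0302), and *Shank3* (-0.27) and *Shank2* (-0.25) fell less. The groups did not overlap for any of the 5, as for 503 of the 515 called genes. The 5 falls numbered 0 without ethanol replicate 4, 1 without saline replicate 4, 2 without ethanol replicate 5 and 3 without saline replicate 6.

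Receptor genes moved singly rather than as families. Among 14 GABA-A receptor subunits *Gabra5* rose (41.9, 47.4 and 43.0 CPM with saline and 55.0, 49.0 and 57.7 CPM with ethanol, log2 fold change 0.29) and *Gabrd*, the extrasynaptic delta subunit, fell (76.4, 76.5 and 71.9 CPM with saline and 64.8, 55.2 and 65.2 CPM with ethanol, -0.28). The groups did not overlap in either, as for 503 of the 515 called genes. Among NMDA receptor genes *Grin2b* fell (494, 441 and 412 CPM with saline and 386, 392 and 366 CPM with ethanol, -0.24) and the other 6 were not called. Of the 18 partners of AMPA receptors the secreted pentraxin *Nptx1* rose (0.29) and *Nptx2* (-0.39), the pentraxin receptor *Nptxr* (-0.23) and *Cacng3* (-0.29) fell. The kainate receptor gene *Grik3* (0.27) and the presynaptic metabotropic receptor gene *Grm8* (0.46) rose, out of 5 and 7 genes of their kinds. *Gabra5* and *Grik3* (edgeR FDR 0.0926 and 0.0969) lost their calls whichever library was left out. *Gabrd* and *Grin2b* each kept theirs in 1 such fit.

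Of 39 neuropeptide receptors 4 rose, *Mc4r*, *Hcrtr1*, *Oprk1* and *Rxfp1*, and 0 fell (10.3% up, against 0.818% of all genes), and DESeq2 called 7 up and 1 down. *Rxfp1*, the relaxin receptor, was at 9.28, 7.17 and 9.03 CPM in the saline libraries and 11.3, 12.1 and 14.3 CPM in the ethanol libraries (log2 fold change 0.57 with a standard error of 0.12, edgeR FDR 0.0486). Of 20 neuropeptides edgeR called 1, *Penk*, the enkephalin precursor, and DESeq2 called 2 down. *Penk* fell (43.1, 41.1 and 56.9 CPM with saline and 30.8, 36.6 and 35.2 CPM with ethanol, log2 fold change -0.46 with a standard error of 0.11, edgeR FDR 0.0696). *Penk* and the striatal projection neuron gene *Pde10a* (-0.32) were lower together, with the striatal list at a summed 298, 273 and 326 CPM in the saline libraries and 262, 239 and 263 CPM in the ethanol libraries, and the part of adjoining striatum in the cores was not tested. Among 34 receptors of monoamines and acetylcholine, *Drd5* (1.24, 1.25 and 1.55 CPM with saline and 2.15, 3.58 and 3.05 CPM with ethanol, 1.12), *Chrna5* (1.64, 1.43 and 0.973 CPM with saline and 3.02, 2.68 and 2.73 CPM with ethanol, 1.06) and *Chrna4* (0.32) rose and *Adra1d* (52.3, 59.1 and 51.1 CPM with saline and 43.2, 39.8 and 43.7 CPM with ethanol, -0.36) fell. *Chrna5* lies against *Chrna3* on the other strand, and its reads cannot be told from those of that gene. The 4 rises of peptide receptors numbered 1 without ethanol replicate 4 and 2 without ethanol replicate 5 or saline replicate 4.

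Few ion channel genes were called. Of 64 potassium channel genes edgeR called 1, *Kcna6*, which rose by 0.23, and DESeq2 1 up and 2 down. *Kcna6* (edgeR FDR 0.0973) lost its call whichever library was left out. Of the 64, 39 were lower and 16 had an unadjusted p below 0.05, against 3228 of all 25905 genes. Of 30 sodium, calcium and HCN channel genes edgeR called 0, DESeq2 1, and 6 had an unadjusted p below 0.05. Of 28 genes of presynaptic release *Rims3* fell (-0.25). Of 8 endocannabinoid genes 0 were called by edgeR or DESeq2 and 1 had an unadjusted p below 0.05. Among 15 interneuron genes *Lamp5* fell (297, 278 and 271 CPM with saline and 230.3, 205 and 248 CPM with ethanol, -0.31), and the remaining 14 were not called by edgeR, where DESeq2 called 2 of the 15 down.

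Cell surface molecules that guide axons and join synapses changed in both directions. Of 35 guidance ligands 5 rose and 0 fell: *Spon1* (34.5, 40.6 and 40.1 CPM with saline and 57.9, 70.7 and 58.3 CPM with ethanol, 0.70), *Efnb3* (26.9, 28.1 and 27.3 CPM with saline and 39.3, 37.8 and 35.9 CPM with ethanol, log2 fold change 0.46 with a standard error of 0.07, edgeR FDR 0.0103), *Slit1* (0.40), *Sema5a* (0.41) and *Sema4a* (0.32). Of 20 guidance receptors 0 rose, and *Nrp2* (19.2, 18.5 and 15.4 CPM with saline and 12.7, 11.8 and 11.7 CPM with ethanol, -0.56) and *Plxnd1* (-0.29) fell. The groups did not overlap for these 7 genes, as for 503 of the 515 called genes. Of the 55 guidance genes 9.09% rose and 3.64% fell, against 0.818% and 1.17% of all genes. DESeq2 called 6 up and 9 down. With 1 library left out the rises numbered 2 to 5 and the falls 0 to 4. Of 48 synaptic adhesion genes 4 rose (*Sdk2*, *Lrfn2*, *Lrrtm2* and *Cntn4*) and 3 fell (*Cbln2*, *Nlgn2* and *Nrxn2*), all but *Sdk2* by less than 0.5 on the log2 scale. These are 8.33% up and 6.25% down, and DESeq2 called 6 up and 4 down. With 1 library left out the adhesion rises numbered 1 to 2 and the falls 0 to 4.

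Some genes of the extracellular matrix were lower. Of 45 matrix and basement membrane genes other than collagens 8 fell (17.8%, against 1.17% of all genes) and 0 rose, with 33 lower and a median of -0.17, and DESeq2 called 12 down and 1 up. The summed level of the list did not separate the groups, at 3115, 3245 and 3121 CPM in the saline libraries and 3099, 3289.6 and 3052 CPM in the ethanol libraries. *Lamb2*, a laminin chain of basement membranes, was at 27.2, 30.3 and 30.9 CPM with saline and 20.9, 22.8 and 18.4 CPM with ethanol (log2 fold change -0.51 with a standard error of 0.09, edgeR FDR 0.0218). *Fn1*, fibronectin, was at 62.8, 62.7 and 67.0 CPM with saline and 47.1, 53.8 and 43.6 CPM with ethanol (log2 fold change -0.41 with a standard error of 0.07, edgeR FDR 0.0279). *Aebp1* (-0.89), *Tnc* (-1.02), *Hspg2* (-0.61), *Eln* (-0.52), *Fbln1* (-0.51) and *Bgn* (-0.41) fell too. These genes are made by the fibroblasts and vessel cells whose markers were lower in the same libraries, and that share was not tested. The 8 falls numbered 2 without ethanol replicate 5 and 3 without ethanol replicate 4 or saline replicate 4.

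Collagens and growth factor pathways held a few calls each. Of 43 collagen genes 1 rose (*Col12a1*) and 4 fell (*Col1a1*, *Col1a2*, *Col3a1* and *Col26a1*), a balance that turned to 5 rises and 3 falls without saline replicate 6 and to 8 and 4 with the replicate number as a block. They numbered 0 and 0 without saline replicate 4, and 0 and 1 without ethanol replicate 4 or 5. Of the 43 genes 2.33% rose and 9.30% fell, against 0.818% and 1.17% of all genes. Of 42 TGF-beta and BMP genes *Bmp6* (-0.53), *Bmp7* (-0.49), *Ltbp4* (-0.24) and *Tgfbr3* (-0.43) fell and 0 rose (9.52% down, against 1.17% of all genes). With 1 library left out these falls numbered 0 to 7. In the Wnt pathway the secreted modulators *Dkk3* (307, 329.9 and 301 CPM with saline and 367, 422 and 429.9 CPM with ethanol, 0.38) and *Rspo2* (0.45) rose, and *Wnt7a* (-0.74) and the receptor gene *Fzd10* (-1.22) fell, out of 48. These are 4.17% each way, and with 1 library left out the rises numbered 0 to 2 and the falls 0 to 5. *Vegfa*, the vascular growth factor, fell narrowly (54.9, 55.7 and 56.9 CPM with saline and 46.9, 45.2 and 45.5 CPM with ethanol, -0.28), and was, with *Igf2*, 1 of the 2 genes that edgeR called among 32 neurotrophic factors and receptors, where DESeq2 called 4 down.

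Among 24 transporters of the barriers and meninges *Slc22a8* (-0.46), *Slco1a4* (-0.31) and the cystine carrier *Slc7a11* (-0.38) fell and the efflux pump *Abcc4* rose (0.49). These are 12.5% down and 4.17% up, against 1.17% and 0.818% of all genes. With 1 library left out the falls numbered 0 to 4 and the rises 0 to 1. In the retinoid pathway *Aldh1a3* (-0.79) and *Stra6* (-0.60), which make retinoic acid and take up retinol, fell (11.8% of 17 genes). Of 8 thyroid hormone genes 1 rose and 1 fell, and the rise was that of *Crym*, which binds the hormone inside cells (14.8, 23.9 and 21.1 CPM with saline and 27.1, 28.1 and 35.9 CPM with ethanol, 0.61, not called by DESeq2). In the interferon list *Ifitm3* (-0.56) and *Oasl2* (-0.76) fell (7.41%), with 21 of 27 lower, against 49.4% of all genes. With 1 library left out the retinoid and the interferon falls each numbered 0 to 2.

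Enzymes that handle ethanol itself showed small differences. Their summed level was 520.1, 502 and 512 CPM in the saline libraries and 540.4, 565 and 526 CPM in the ethanol libraries, higher in every ethanol mouse. This held for 6 of the 76 sums of lists and families, this one included. Of 13 genes for ethanol, acetaldehyde and acetate metabolism 11 were higher (against 50.6% of all genes), DESeq2 called 3 up and edgeR 1, *Aldh1b1*, a mitochondrial aldehyde dehydrogenase, at 5.00, 4.14 and 4.94 CPM in the saline libraries and 6.88, 6.14 and 6.92 CPM in the ethanol libraries (log2 fold change 0.50 with a standard error of 0.12, edgeR FDR 0.0692). *Aldh1b1* lost its call whichever library was left out. *Acss2*, which makes acetyl-CoA from acetate, was at 50.6, 45.8 and 49.8 CPM with saline and 56.5, 57.6 and 55.2 CPM with ethanol (FDR 0.133), and *Aldh2* had a log2 fold change of 0.01 (FDR 0.976). Of 32 enzymes that write or erase histone acetylation or DNA methylation *Hdac9* fell (42.8, 45.0 and 39.8 CPM with saline and 31.8, 32.4 and 34.1 CPM with ethanol, log2 fold change -0.38 with a standard error of 0.07, edgeR FDR 0.0271) and edgeR called none of the other 31, where DESeq2 called 1 of the 32 up and 2 down. Of 20 clock genes *Npas2* (-0.34) and *Rorb*, both activators, fell, and the other 18 were not called.

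Several processes and families had no called gene in this test. The unfolded protein response (29 genes, median -0.01) and chaperones (24 genes, 0.01) had 0 calls by edgeR and by DESeq2, with 3 and 2 genes at an unadjusted p below 0.05. Microglial genes (14 genes, -0.09) and astrocyte genes (13 genes, -0.06) likewise had 0 calls by both tools, with 1 and 5 at that p. Thalamic, dentate granule and blood genes also had 0, with 2, 1 and 0 at that p.

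Large housekeeping families stayed near the median of all genes. Cytosolic ribosomal proteins (88 genes, median -0.02), mitochondrial ribosomal proteins (75 genes, 0.01), proteasome subunits (39 genes, 0.02) and nuclear genes of complex I (37 genes, 0.02) had 0 calls by edgeR and by DESeq2, with 7, 3, 3 and 3 at an unadjusted p below 0.05. The 13 mitochondrially encoded mRNAs were all higher by a median of 0.07, with 0 called by either tool and 1 at that p. Zinc finger genes named Zfp had a median of 0.06 with 266 of 397 higher but 2 called by edgeR (both up) and 5 up and 2 down by DESeq2. Clustered protocadherins had a median of -0.06 with 49 of 57 lower and 1, *Pcdhb12*, called, up. Of these 57, 24 had an unadjusted p below 0.05, against 3228 of all 25905 genes. In 25 every ethanol library was lower, against 8.79% of all genes. Pairs that overlapped several genes counted for each, so members of this family that share exons are not independent measurements. How much of these counts comes from shared exons was not tested. The summed level of the family was 9793 to 10039 CPM in the saline libraries and 8948 to 9633 CPM in the ethanol libraries. Of 331 solute carriers 8 rose and 8 fell (2.42% each way, against 0.818% up and 1.17% down of all genes), and of 23 heparan sulfate modifying enzymes 3 rose and 1 fell. Of 54 RAB GTPases 4 rose and 0 fell (7.41% up). The RAB rises numbered 1 without ethanol replicate 4 or 5 or saline replicate 4 or 6 and 2 without saline replicate 2, and DESeq2 called 5 up and 1 down.

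**Figure D4:**
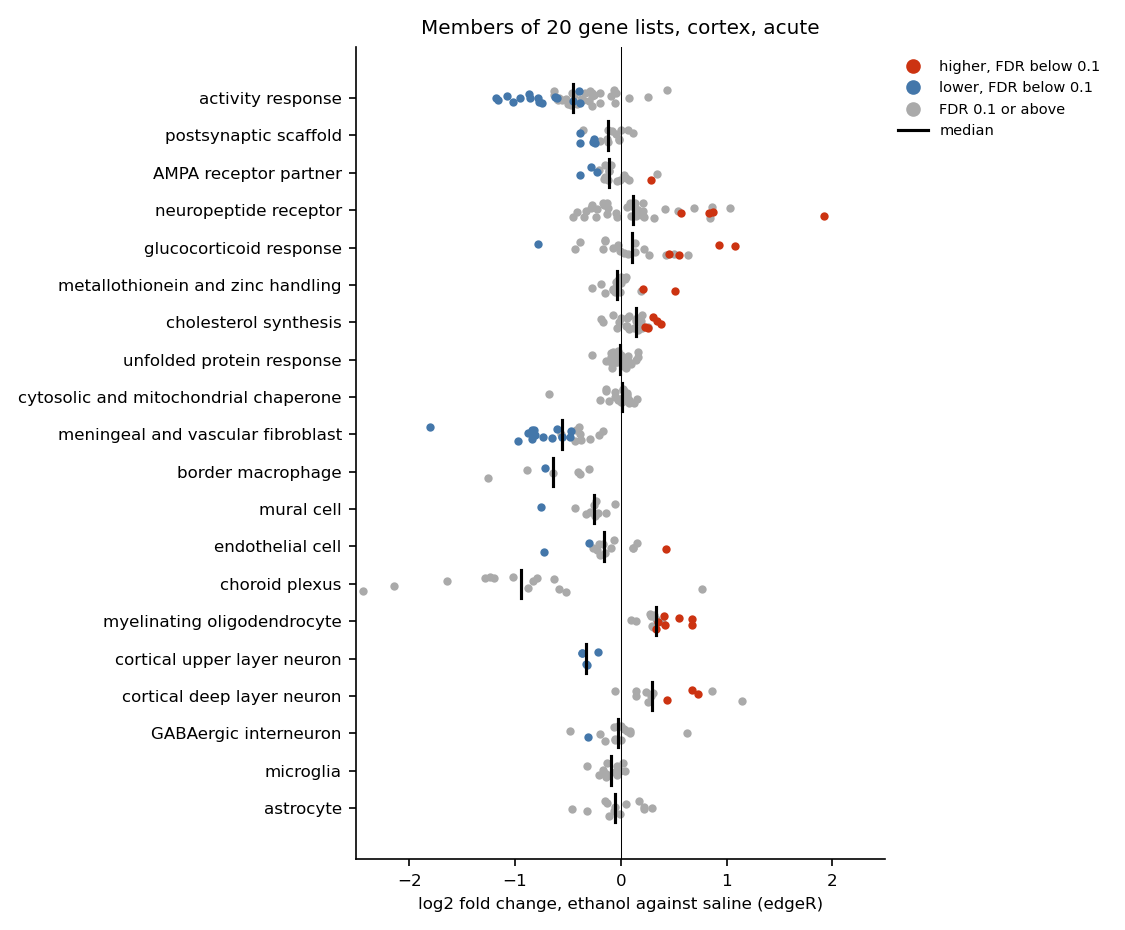
Log2 fold change of each tested member of 20 gene lists (1 point a gene, black bar the list's median), with called genes in colour. Meningeal, choroid plexus and border macrophage medians lie furthest left, at -0.56, -0.95 and -0.64, activity response at -0.45, and myelin and deep-layer medians furthest right, at 0.33 and 0.29.

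Isoform counts gave the same genes for the most part. EdgeR called 1611 of 129926 isoforms (1.24%, with 643 or 0.495% up and 968 or 0.745% down), belonging to 650 genes, of which 495 were also called as genes, and no gene had called isoforms in both directions. Isoforms share reads where they share exons, so their counts are not independent. *Fkbp5* shows this: 11 of its 13 tested isoforms rose, by 0.80 to 1.00 on the log2 scale, and those not called, Fkbp5-206 and Fkbp5-204, averaged under 0.05 CPM in each group. The coding isoform Fkbp5-201 was at 10.1, 11.5 and 12.7 CPM with saline and 16.5, 24.6 and 24.0 CPM with ethanol (log2 fold change 0.93 with a standard error of 0.12, edgeR FDR 0.00279).

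For 155 genes an isoform was called while the gene was not. The 5 with the smallest p among those of at least 10 counts included Auts2-201, Ppp3ca-203, Sun1-207 and Aff1-203, and 4 of the 5 are annotated as retained introns. Auts2-201 was at 2.83, 2.84 and 2.79 CPM with saline and 1.95, 1.86 and 1.62 CPM with ethanol (log2 fold change -0.64 with a standard error of 0.10, edgeR FDR 0.00928), against a gene-level log2 fold change of -0.22 (FDR 0.229). Ppp3ca-203 of the calcineurin catalytic subunit (-0.36) and Sun1-207 (-0.58) were lower and Aff1-203 higher (0.78). Retained introns made up 19.1% of the 272 called isoforms of such genes and 15.7% of all isoforms tested.

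Within the activity list 70 of 185 isoforms tested fell (against 0.745% of all isoforms) and 0 rose, in 19 genes, which adds *Bdnf*, *Dusp6*, *Fosb* and *Vgf* to those called as genes. In the myelin list 40 of 74 isoforms rose (against 0.495% of all isoforms), and in the meningeal list 30 of 68 fell (against 0.745%). The isoform calls numbered 260 without ethanol replicate 4, 326 without saline replicate 4, 735 without ethanol replicate 5, 960 without saline replicate 2 and 3579 without ethanol replicate 2. The 155 genes numbered 40 without saline replicate 4, 64 without ethanol replicate 4, 300 without saline replicate 6 and 518 without ethanol replicate 2.

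The same genes were set beside the dorsal hippocampus (dHPC) of the acute mice and beside the cortex after chronic ethanol. The dHPC libraries came from the same kit, and 5 of the mice gave both tissues, so the acute comparisons share animals and not samples. The 15 activity genes that fell in the cortex had a median of 0.07 in dHPC, 11 of them higher there, and 0.09 in the chronic cortex, 8 of them higher. *Egr3* had log2 fold changes of -0.62 in the cortex, -0.07 in dHPC and 0.14 in the chronic cortex, and *Arc* ones of -0.77, 0.24 and 0.24. Those 15 were chosen on the cortex libraries, which also enter the interaction of region and treatment, so its p-values are counted over the whole list: 19 of the 45 genes had an unadjusted p below 0.05, against 7.66% of all genes, and 0 genes of the genome passed its FDR with edgeR.

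With the mouse as a block that interaction called 70 of 27231 genes (0.257%), none of them from the activity list, and DESeq2 without the block called 130 (0.477%). Of the 70, 36 were called in the cortex, against 1.99% of all genes tested there. The same cortex libraries enter both tests, so the counts are not independent and this overlap is no separate evidence. Among the 36, *Rxfp1* had log2 fold changes of 0.57 in the cortex and -1.51 in dHPC (FDR of the difference 0.00161). The meningeal genes *Slc13a4* (-0.84 in the cortex and 0.16 in dHPC, FDR 0.00956) and *Igf2* (-0.65 in the cortex and 0.02 in dHPC, FDR 0.0347) were lower in the cortex and not in dHPC. *Cux2*, *Rorb*, *Shank3*, *Nptxr*, *Nrp2*, *Adra1d*, *Efnb3*, *Crym* and *Fkbp5* were also among the 70. *Fkbp5* rose more in the cortex, with log2 fold changes of 0.93 in the cortex and 0.42 in dHPC.

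Glucocorticoid-response genes had medians of 0.10 in the acute cortex, 0.34 in dHPC and 0.00 in the chronic cortex, and *Tsc22d3* had log2 fold changes of 0.55, 0.74 and 0.17. Myelin genes had a median of 0.33 in the acute cortex, -0.19 in dHPC and 0.28 in the chronic cortex, with an unadjusted interaction p of region below 0.05 for 15 of 16. Meningeal genes had medians of -0.56, -0.17 and -0.41, and upper-layer genes of -0.33, 0.04 and -0.32, so these lists lay on the same side in both cortex comparisons, which share no mice. Cholesterol genes had medians of 0.15, 0.01 and 0.02.

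The interaction of paradigm and treatment in the cortex, which asks whether the acute difference departs from the chronic one, passed the FDR for 0 of 26540 genes with edgeR and 21 with DESeq2 (0.0791%), and 2174 genes (8.19%) had an unadjusted p below 0.05. Of the 45 activity-response genes 15 did. The acute and chronic differences were therefore not shown to differ for any single gene by edgeR.

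**Figure D5:**
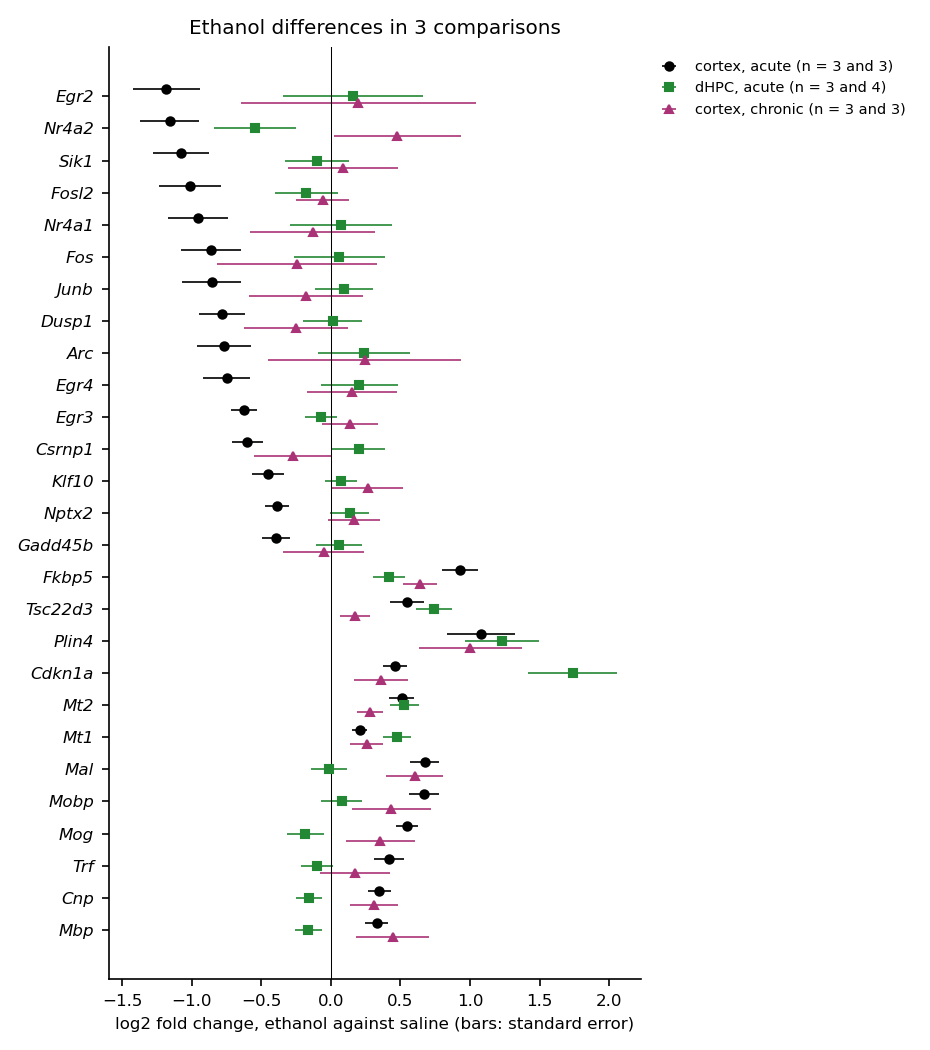
Log2 fold change of ethanol against saline (bars, standard error) for the called activity, glucocorticoid and metallothionein genes and 6 of the 7 called myelin genes in 3 comparisons. Activity genes lie left of 0 in the acute cortex and mostly right of 0 in dHPC, and the 6 myelin genes lie right of 0 in both cortex comparisons.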

How the data were processed

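Raw counts of read pairs per gene (56415) and per isoform (218795) were made and deposited by the authors, who used cutadapt 5.0 for trimming, STAR 2.7.10a for alignment to GRCm39 and counted pairs on exons with featureCounts 2.0.6 and the Ensembl annotation. The cortex and dHPC kit keeps no strand, yet pairs were counted as reverse-stranded, and pairs that mapped to or overlapped several features counted for each. For 13971 genes an exon overlaps an exon on the other strand. Without molecular identifiers, reads are not independent molecules.

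Genes that reached 5 counts in 2 or more libraries of a group were tested with edgeR 4.0.16 (quasi-likelihood F test, TMM, prior count 0.125, limma 3.58.1, R 4.3.3) on the 6 cortex libraries, with treatment as the only term and a Benjamini-Hochberg FDR below 0.1 over all features. Interactions with region (13 libraries) and paradigm (12 libraries) were fitted in the same way. Same-numbered cortex and dHPC libraries come from the same mouse (5 pairs, correlations of their deviations from the group means 0.03 to 0.25), so the fit with the mouse as a block is given beside the interaction with region. DESeq2 1.42.0 (Wald test) was the study's tool and served as an alternative, beside its size factors in edgeR, no filter, at least 10 counts in every library, all 4 cortex groups, removal of GC and length trends, genes without overlap, a block for the replicate number and omission of each library in turn.

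Members, lists (57) and families (19) were chosen with earlier results of these data known, so counts and medians describe them and carry no test. Named genes are the 12 largest rises and falls among called genes with a mean of at least 1 CPM, no overlap of groups or strands and a formal symbol, every called list member, and genes named in earlier accounts. List members without a call were named by role, and a few items, counted here, are not reported by name. For the duplicate symbols *Ddit3* and *Nrg1* the identifier with more counts was used, and *Fam183b* was not in the table under that symbol. On simulated counts of this design the test was checked to recover known changes. Promoters were read from GRCm39 with pysam 0.24.0 at canonical starts of GENCODE M39, which matched 56384 genes by identifier. Tables and plots used Python 3.11.15, pandas 2.3.3, numpy 2.4.6, scipy 1.17.1, and matplotlib 3.10.9.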

Additional observations from a re-analysis of the deposited data

How the results depend on the processing

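The 515 called genes numbered 957 with DESeq2, 1488 with no low-count filter, 279 among genes free of antisense overlap (14341 tested), 0 with all 4 cortex groups in one fit, and 42 to 794 with 1 library left out. They numbered 500 with DESeq2's size factors, 573 at 10 counts, 560 with the length trend and 468 with the GC and length trends removed. Of the 76 medians of lists and families some moved by at least 1 SD of the library medians within groups. These numbered 16 among genes free of antisense overlap, 15 with the replicate number as a block, 8 with the GC and length trends removed and 5 to 10 with 1 library left out. The 1611 called isoforms numbered 2914 with DESeq2, 5257 with no filter and 260 to 3579 with 1 library left out. The 155 genes with a called isoform only numbered 450 with no filter and 40 to 518 with 1 left out. The interaction with paradigm (0 genes) gave 21 with DESeq2, 314 with no filter and 0 to 2 with 1 left out. That with region (0 genes) gave 130, 433 and 0 to 105 in the same order, 105 of them without dHPC ethanol replicate 4. The causes were not tested. The log2 ratio of the summed choroid plexus genes was -0.37 to -2.26 with 1 library left out.

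Ethanol and saline libraries of the same replicate number, 2 or 4, came from different mice. Their deviations from the group means had correlations of 0.09 and 0.16, and those of crossed numbers had -0.15 and -0.13. Whether the number stands for a shared step of the work was not tested. With the replicate number as a block the called genes numbered 789, the isoforms 5136, the genes with a called isoform only 1019 and the interaction genes of paradigm 0. The mouse as a block gave 70 interaction genes of region.

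None of the 152 called and named genes changed direction in any alternative that tested it, and genes named without a call were not followed. These genes were chosen as called in the same libraries. Groups that do not overlap, as for 503 of the 515 called genes, keep their order when 1 library is left out. The unchanged direction was therefore largely set by the choice of genes. Of 152 named genes 133 lost their call without ethanol replicate 4, 117 without saline replicate 4, 100 without ethanol replicate 5, 66 without saline replicate 2, 61 without saline replicate 6, 32 without ethanol replicate 2, 20 with the GC and length trends removed and 9 of 151 with DESeq2. Over all genes of at least 1 CPM the log2 fold change had a Spearman correlation of -0.23 with GC content. With 3 mice in each group, an exact test of a single value cannot go below p = 0.1.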

Other observations

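Some called genes outside the lists of the report belong to the same tissues as those lists. They were chosen after their values were seen. *Ptgds*, the prostaglandin D synthase of the meninges and of oligodendrocytes, had a log2 fold change of -0.68, and *Anxa2* one of -0.69 (FDR 0.0103 and 0.0192). *Nr2f1* and *Nr2f2*, nuclear receptors that pattern cortical areas, fell by 0.48 and 0.60 on the log2 scale (FDR 0.0173 and 0.0259). *Prdm8*, a transcription factor of upper-layer neurons, fell by 0.52 and the adhesion gene *Nectin3* by 0.73 (FDR 0.0311 and 0.0129). *Sulf1* and *Sulf2*, which trim sulfate from heparan sulfate, rose by 0.67 and 0.33 (FDR 0.0239 and 0.0178). Of the called genes, 24 pairs overlap on opposite strands, and both genes of each pair moved in the same direction, among them *Myoc* (-0.85) and *Myocos* (-0.79). *Nr2f1*, *Nr2f2* and *Prdm8* each belong to such a pair, so their reads cannot be told from those of the partner gene.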
